A study of Mus musculus with 4 samples.

Results

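The CCT chaperonin, also called TRiC, is a folding machine of the cytosol built from 8 different subunits, and the messages of these 8 subunits are described here in RNA precipitated by an antibody to DDX20. The genes are Tcp1 (subunit alpha), Cct2 (beta), Cct3 (gamma), Cct4 (delta), Cct5 (epsilon), Cct6a (zeta), Cct7 (eta) and Cct8 (theta). They were taken by symbol from a fixed list of the ring's subunits. Earlier results of these data were known when that list was chosen. Each of the 8 was found among the 55357 gene identifiers of the deposited table. All 8 also passed the filter on low counts, which kept 17422 genes.

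Each CCT particle consists of rings stacked back to back, and each ring holds every subunit once in a fixed order. Unfolded chains enter the central cavity, ATP binding closes a lid built into the subunits, and the chain folds inside. Actin and tubulin are the best known substrates, so the complex is needed in cells that divide or change shape, and it is abundant in testis. Because the subunits share a stoichiometry and nearly the same length of coding sequence, their messages can be set against each other without the large length differences found between most genes.

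The subunits descend from a common ancestor and keep the same nucleotide-binding loop, but their messages differ in the letters that encode it. The stretch around that loop is shown for all 8 messages because it lets a reader see how they differ at this site. Sequence that whole transcripts share with other genes is described below. Each line gives 48 bases of the message, 5′ to 3′, from the GENCODE M21 transcripts of GRCm38, and the capitals mark the 12 bases of the loop.
Tcp1: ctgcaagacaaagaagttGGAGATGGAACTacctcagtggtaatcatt
Cct2: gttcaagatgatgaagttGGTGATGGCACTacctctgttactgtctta
Cct3: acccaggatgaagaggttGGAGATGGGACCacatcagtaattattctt
Cct4: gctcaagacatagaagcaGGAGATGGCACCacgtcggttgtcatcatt
Cct5: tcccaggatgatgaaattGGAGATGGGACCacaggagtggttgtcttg
Cct6a: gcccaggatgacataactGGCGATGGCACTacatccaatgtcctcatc
Cct7: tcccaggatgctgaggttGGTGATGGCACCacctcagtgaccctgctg
Cct8: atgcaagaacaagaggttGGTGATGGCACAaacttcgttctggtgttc

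In the 7 subunit genes with an annotated coding sequence the loop bases in capitals were in frame and began at coding base 259 in Tcp1 and at base 307 in Cct4 and Cct5, with the others between these. The stretch lies in exon 5 of Cct2 (chr10:117061523-117061570, minus strand), exon 5 of Cct3 (chr3:88302816-88302863, plus strand), exon 4 of Cct4 (chr11:22995948-22995995, plus strand), exon 3 of Cct6a (chr5:129789098-129789145, plus strand) and exon 4 of Cct8 (chr16:87491362-87491409, minus strand). In Tcp1, Cct5 and Cct7 it crosses the junction of exons 3 and 4. These parts lie at chr17:12918133-12918171 and chr17:12919351-12919359 in Tcp1, at chr15:31597411-31597453 and chr15:31595839-31595843 in Cct5, and at chr6:85460034-85460048 and chr6:85461045-85461077 in Cct7.

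The study compared 2 RIP libraries (RNA immunoprecipitation with an antibody to DDX20, an RNA helicase that associates with the SMN complex) with 2 input libraries made from 10% of the total RNA. The source of all 4 was testis cells of C57BL/6 mice at 7 days of age, exposed to 254 nm ultraviolet light at 200 mJ per square cm, which links RNA to protein. The labels name no genetic alteration or drug, and they do not say how many animals were pooled or whether the replicates were separate preparations, so p-values measure only the spread between these libraries, which may be technical. In the labels, the antibody catalogue number is not the same for both RIP libraries but changes by 1 character. A precipitation with a control antibody was not analysed here, and values below therefore compare make-up of RIP with make-up of input and do not measure binding by DDX20.

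Totals ran from 21416567 to 21913977 counts in input and from 37927689 to 38458014 in RIP. With halved counts, in case both mates of a read pair were counted, replicates differed slightly more than counting noise (median chi-square statistic 1.19 times that of noise in input and 1.15 times in RIP, against 61.0 times between an input and a RIP library) and were kept apart. Markers of the labelled tissue were present: the summed level of 4 germ cell genes was 408.2 and 408 CPM (depth-scaled counts, with libraries scaled by the trimmed mean of M values, TMM) in input and 143.8 and 146.5 in RIP, with 4 of 4 lower, and that of 4 Sertoli cell genes was 2661 and 2626 in input and 1769 and 1772 in RIP, with 2 lower and 1 higher. All 4 Leydig cell markers, 3 of 3 macrophage, 3 of 3 red blood cell, 2 of 3 peritubular myoid and 2 of 3 endothelial markers were also lower, where 38.6% of all genes tested were, while 4 of 4 markers of undifferentiated spermatogonia were higher with TMM (38.7% of all genes) and 0 of 4 with total counts (28.7%). The part of these markers' differences in the values of the subunits was not tested.

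With TMM scaling all 8 CCT messages were higher in RIP than in input, by amounts that ran from 1.11-fold for Cct5 to 2.57-fold for Cct8. Their summed counts were 79110 and 76810 in input, 0.361% and 0.359% of all counts, and 163190 and 163891 in RIP, 0.424% and 0.432%. By the quasi-likelihood test of edgeR, adjusted after Benjamini and Hochberg, 8 of 8 were called higher, where 38.7% of all genes tested were called higher, and the largest adjusted p of the 8 was 7.82e-07, for Cct5. Their median log2 fold change was 0.56, against -0.05 over all genes tested. With total counts in place of TMM, which moved the median of all genes to -0.40, 6 were called higher (28.7% of all genes), Cct4 was not called (log2 fold change 0.06, adjusted p = 0.0641 in edgeR) and Cct5 was called lower (-0.20), as were 50.8% of all genes. Upper-quartile scaling left 7 called higher (28.8% of all genes) and Cct5 lower (50.5% of all genes). Scaling moves all genes by about the same amount, so relative to the median of all genes the median of the 8 stayed 0.62 higher. The lowest of them, Cct5, stayed 0.20 higher. Without a filter on low counts these values were 0.99 and 0.58. Keeping genes with at least 1 CPM in 2 libraries gave 0.50 and 0.09. An offset for coding length gave 0.22 and -0.15 (7 subunits).

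Cct8, a subunit on the side of the ring that binds ATP weakly, had the largest difference. Its gene lies at chr16:87483326-87495873 on the minus strand (GRCm38). It stood at 267.3 and 262.8 CPM in input and at 672.6 and 688.2 CPM in RIP. Both RIP libraries were far above both input libraries, and the gap was many times the spread within a group (SD 3.21 and 11.01 CPM, n = 2 each). The log2 fold change was 1.36 ± 0.0270 (SE), and 91.0% of all genes tested had a lower one. Cct8 alone of the subunits was called with at least a 2-fold difference, which 17.1% of all genes tested reached in this direction.

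Cct2, a subunit on the side of the ring that binds ATP tightly, came next. Its gene lies at chr10:117051001-117063814 on the minus strand. It stood at 341.9 and 347.9 CPM in input and at 664.5 and 666 CPM in RIP, with no overlap. The log2 fold change was 0.95 ± 0.0259 (SE), above that of 81.3% of all genes tested.

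Cct5, another subunit of the side that binds ATP tightly, lay at the other end. Its gene lies at chr15:31590800-31601804 on the minus strand. It stood at 686.4 and 693.2 CPM in input and 767.1 and 764.8 CPM in RIP. The libraries of the 2 groups did not overlap, and the log2 fold change was 0.15 ± 0.0237 (SE). That direction depends on the scaling: under total counts it was -0.20 and under upper-quartile scaling -0.19, both called lower, and it was -0.16 after an offset for coding length.

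The other 5 subunits lay close together. Cct7 (chr6:85451514-85468475, plus strand) stood at 444.3 and 436.1 CPM in input and at 670.3 and 672.2 in RIP, a log2 fold change of 0.61 ± 0.0252. Cct6a (chr5:129786998-129846371, plus strand), whose product sits, like that of Cct8, on the weakly binding side of the ring, stood at 287.4 and 285.5 CPM in input and at 429.7 and 434.7 in RIP, a log2 fold change of 0.59 ± 0.0275. In both genes the RIP libraries were close to 1.5-fold above the input libraries, with 1.53-fold in Cct7 and 1.51-fold in Cct6a.

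Cct3 (chr3:88297116-88321767, plus strand) stood at 440.7 and 446.4 CPM in input and at 642.2 and 639.8 in RIP, a log2 fold change of 0.53 ± 0.0252. Tcp1, the founding member named after the mouse t-complex (chr17:12915701-12925067, plus strand), stood at 404.1 and 389.6 CPM in input and at 552.9 and 541.1 in RIP, a log2 fold change of 0.46 ± 0.0268. Cct4, a subunit that contacts actin (chr11:22990519-23003780, plus strand), stood at 334.1 and 318.1 CPM in input and at 424.6 and 438.2 in RIP, a log2 fold change of 0.40 ± 0.0289. In none of these 3 genes did the RIP and input libraries overlap. Both RIP libraries lay above both input libraries in 8 of 8 subunit genes and in 42.7% of all genes tested, and both lay below in 0 of 8 and in 45.3% of all genes.

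**Figure D1:**
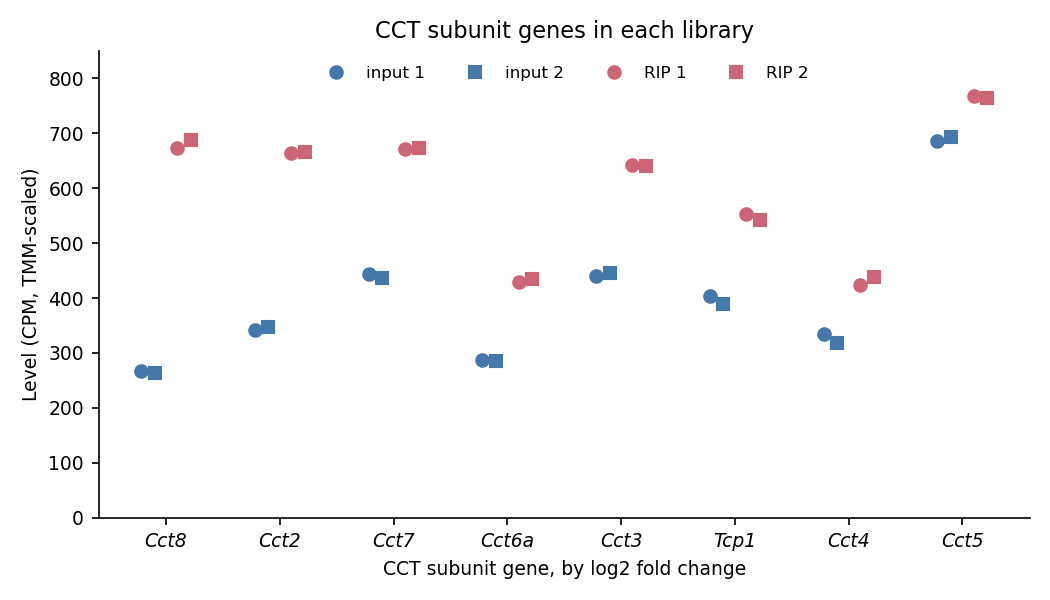
Level of each CCT subunit gene (y axis, CPM scaled by TMM) in the 2 input libraries (blue) and the 2 RIP libraries (red), with circles for replicate 1 and squares for replicate 2, and genes ordered by log2 fold change from left to right. Cct8 goes from 267.3 and 262.8 to 672.6 and 688.2 CPM, whereas Cct5 goes from 686.4 and 693.2 to 767.1 and 764.8 CPM, a difference that turns to -0.20 (log2) with total counts.

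The order of the subunits by log2 fold change does not depend on scaling between libraries, since the ratio of 2 genes is taken within each library. Of the 28 pairs of subunits, the 95% interval of the difference in log2 fold change (from the SEs of the fit) excluded 0 in 24. Each difference was taken as the larger value minus the smaller. These intervals are not adjusted for the number of pairs. How many of all pairs of tested genes have such an interval was not computed. The largest difference, between Cct8 and Cct5, was 1.21 ± 0.0359 (SE). The log2 ratio of Cct8 to Cct5 in CPM was -1.36 and -1.40 in input and -0.19 and -0.15 in RIP. Cct8 exceeded Cct2 by 0.41 ± 0.0374, Cct2 exceeded Cct7 by 0.34 ± 0.0361, and Cct4 exceeded Cct5 by 0.25 ± 0.0374, so these 3 genes stood apart from the other 5.

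Within the middle group, neighbours in the order could not be separated, whereas pairs further apart had intervals above 0. Those differences ran from 0.077 (0.007 to 0.147) for Cct7 and Cct3 to 0.205 (0.130 to 0.280) for Cct7 and Cct4. Cct7 and Cct6a differed by 0.01 (95% interval -0.06 to 0.09), Cct6a and Cct3 by 0.06 (-0.01 to 0.14), Cct3 and Tcp1 by 0.07 (-0.004 to 0.141), and Tcp1 and Cct4 by 0.06 (-0.02 to 0.14). The ratio of the pair did not overlap between RIP and input libraries in 28 of 28 pairs, but this held for 84.9% of all pairs of tested genes. An exact permutation test over 2 against 2 libraries cannot reach 0.05, so none is given for single pairs.

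**Figure D2:**
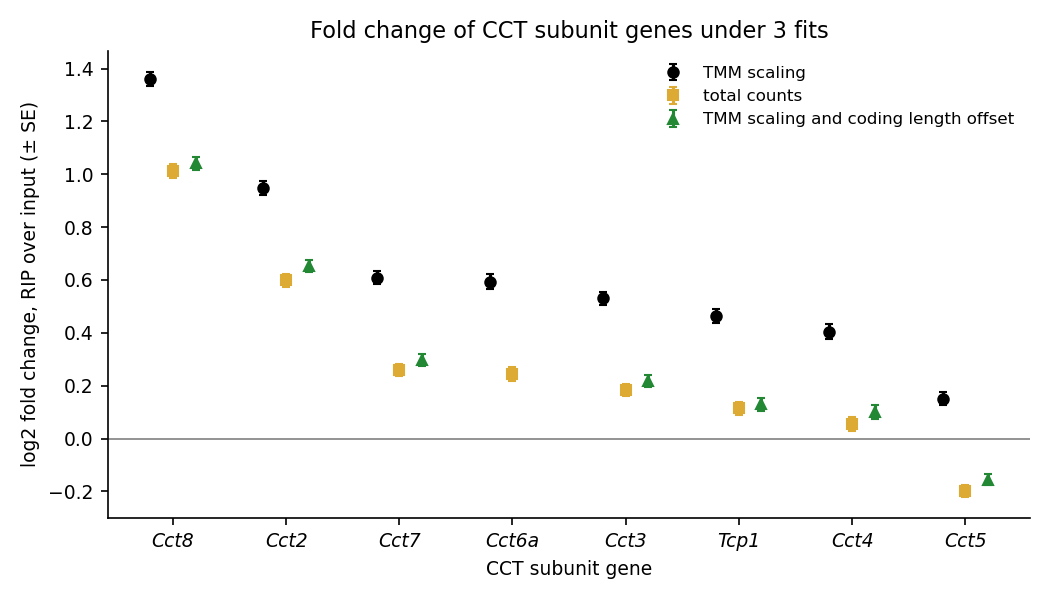
Log2 fold change of RIP over input (y axis, bars are SE) for each CCT subunit gene under TMM scaling (black), total counts (yellow) and TMM scaling with an offset for coding length (green; Cct6a has no annotated coding sequence and no value there). All 3 fits keep the order from Cct8 (1.36, 1.01 and 1.04) to Cct5 (0.15, -0.20 and -0.16), and only Cct5 changes sign.

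The make-up of the ring's messages was more even in RIP than in input. Levels were compared between genes as CPM per kb of the principal transcript, and each subunit's share of the sum over the 8 was taken within a library. Cct6a has no annotated coding sequence, so its level rests on a transcript of 2454 nt without one. Cct5 held 25.1% and 25.5% of that sum in input and 18.8% and 18.6% in RIP. Cct8 went from 7.55% and 7.47% in input, the lowest share of the 8, to 12.7% and 13.0% in RIP. Cct2 went from 11.8% and 12.1% to 15.4% and 15.4%.

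The remaining shares moved less. Tcp1 went from 11.2% and 10.8% in input to 10.2% and 9.99% in RIP, and Cct4 from 9.10% and 8.71% to 7.75% and 7.97%. Cct3 held 15.1% and 15.4% in input and 14.7% and 14.6% in RIP, Cct7 12.3% and 12.2% in input and 12.4% and 12.4% in RIP, and Cct6a 7.92% and 7.92% in input and 7.94% and 8.0% in RIP. The coefficient of variation over the 8 levels was 45.2% and 46.8% in input and 30.4% and 29.9% in RIP, with no overlap.

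In input the order by level per kb of transcript was Cct5 (372 ± 2.60 CPM per kb, mean ± SD, n = 2), Cct3 (224 ± 2.05), Cct7 (180.3 ± 2.37), Cct2 (176 ± 2.20), Tcp1 (162 ± 4.20), Cct4 (131 ± 4.54), Cct6a (117 ± 0.550) and Cct8 (111 ± 1.34). Cct7 (182 and 178.7 in the 2 libraries) was close above Cct2 (174.5 and 177.6), with no overlap. In RIP the order was Cct5 (413 ± 0.891), Cct2 (339.6 ± 0.541), Cct3 (324 ± 0.849), Cct8 (284 ± 4.60), Cct7 (275 ± 0.537), Tcp1 (224 ± 3.41), Cct6a (176 ± 1.44) and Cct4 (174 ± 3.89), the last pair within its spread. On this scale Cct8 went from the last place to the fourth.

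The divisor matters for this order but not for the evening out. Per kb of merged exons, which count retained introns and run from 2557 nt in Cct2 to 6778 nt in Cct7, Cct5 was still highest (249 in input and 277 in RIP) and Cct7 was lowest (65.0 and 99.0). Cct8 was then in the third place in input (85.8) as in RIP (220.3), and all 8 genes kept their rank, so the move of Cct8 in rank holds only per kb of principal transcript. The highest level was 3.84 times the lowest in input and 2.80 times in RIP on that scale, and 3.36 and 2.38 times per kb of transcript.

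**Figure D3:**
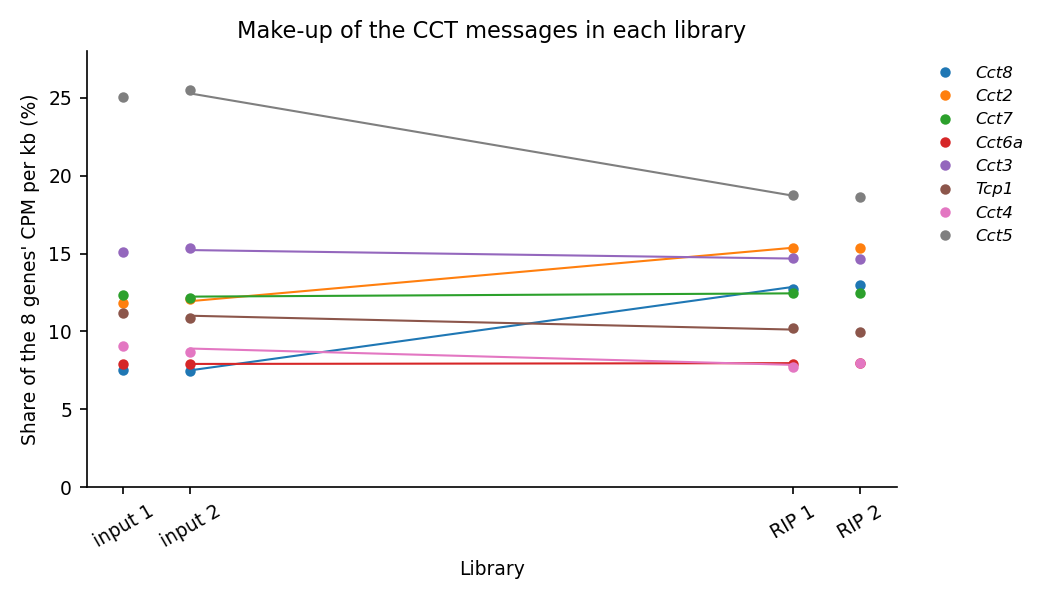
Share of each CCT subunit gene in the summed CPM per kb of principal transcript over the 8 genes (y axis, percent) in each library (x axis), with points for libraries and lines between the group means. Cct5 goes from 25.1% and 25.5% to 18.8% and 18.6%, Cct8 from 7.55% and 7.47% to 12.7% and 13.0%, and Cct6a lies between 7.92% and 8.0% in all 4 libraries.

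The messages differ little in coding length, which runs from 1605 nt in Cct2 to 1668 nt in Tcp1 over the 7 genes where the annotation gives one, and more in their untranslated ends. Cct8 has the longest 3′ untranslated region (665 nt), followed by Cct4 (632 nt) and Tcp1 (594 nt), and Cct5 the shortest (131 nt), while Cct7 has the longest 5′ untranslated region (608 nt). Cct8 (43.3%) and Cct4 (45.1%) had the lowest GC content of the transcripts, and Cct7 (54.0%) and Cct5 (50.2%) the highest. Over the subunits, log2 fold change had a Spearman correlation of 0.14 with coding length and of 0.39 with the length of the 3′ untranslated region (n = 7 each), and of -0.34 with GC content and 0.64 with the number of exons (n = 8 each). Without Cct8 these values were -0.14, 0.03, 0.00 and 0.49. The GC content and exon number of Cct6a come from a transcript without an annotated coding sequence. The points share the same 4 libraries and 8 related genes, and the values are descriptions only.

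Across all coding genes log2 fold change was higher at greater coding length, from a median of -1.42 in the shortest of 20 bins to 1.55 in the longest. The 734 genes with coding lengths from 1623 to 1782 nt had a median log2 fold change of 0.34 (quartiles -0.11 and 0.78), and the 734 with 1491 to 1623 nt one of 0.31. Cct5, at 1623 nt, lay below both medians, and the other 6 subunits with a coding length lay above them. After a smooth offset for coding length, 6 of the 7 subunits with a value were called higher, where 37.8% of all genes were. Cct8 stood at 1.04, Cct2 at 0.65, Cct7 at 0.30, Cct3 at 0.22, Tcp1 at 0.13 and Cct4 at 0.10. Cct5 was called lower at -0.16, as were 35.5% of all genes. The SD over these 7 was 0.398 both before and after the offset, which moves genes of like length by like amounts. With an offset for merged exon length in its place, 8 of 8 were called higher (40.4% of all genes) and 0 lower (29.8% of all genes), from 0.18 in Cct3 to 1.62 in Cct8, with Cct5 at 0.50. Cct5 was thus not the lowest under this offset.

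Other complexes of fixed make-up gave different values in the same fit, in which 38.7% of all genes were called higher. All 6 genes of the MCM2-7 helicase, the ring that opens DNA at replication origins, were higher, from Mcm5 (0.73) and Mcm7 (0.84) through Mcm2 (1.17), Mcm3 (1.52) and Mcm6 (1.55) to Mcm4 (1.94), with coding lengths from 2157 to 2712 nt. Of the 14 genes of the 20S proteasome core, the barrel that degrades proteins, 13 were lower (38.6% of all genes) and 1 higher (0 higher with total counts, against 28.7% of all genes), with coding lengths from 603 to 831 nt. Psmb1 (-1.16), Psma7 (-1.31), Psmb4 (-0.82) and Psmb6 (-1.67) had the highest mean CPM of those lower, and Psma1 was higher by 0.11 with TMM.

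The spread within the CCT, MCM2-7 and proteasome core genes was of similar size. The SD of log2 fold change was 0.369 over the CCT subunits, 0.463 over the MCM2-7 genes and 0.420 over the proteasome core genes, against 1.25 over all genes tested. After the offset for coding length the medians were 0.22, 0.58 and -0.67. The SDs were then 0.398 (7 CCT subunits), 0.406 and 0.412, against 0.887 over all genes with a value. The SD was larger over the 6 prefoldin genes (0.677, and 0.559 after the offset). Over the 2 genes of the mitochondrial chaperonin it was 2.22, and 1.12 after the offset. Both complexes are described below. Differences between the complexes were not tested.

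**Figure D4:**
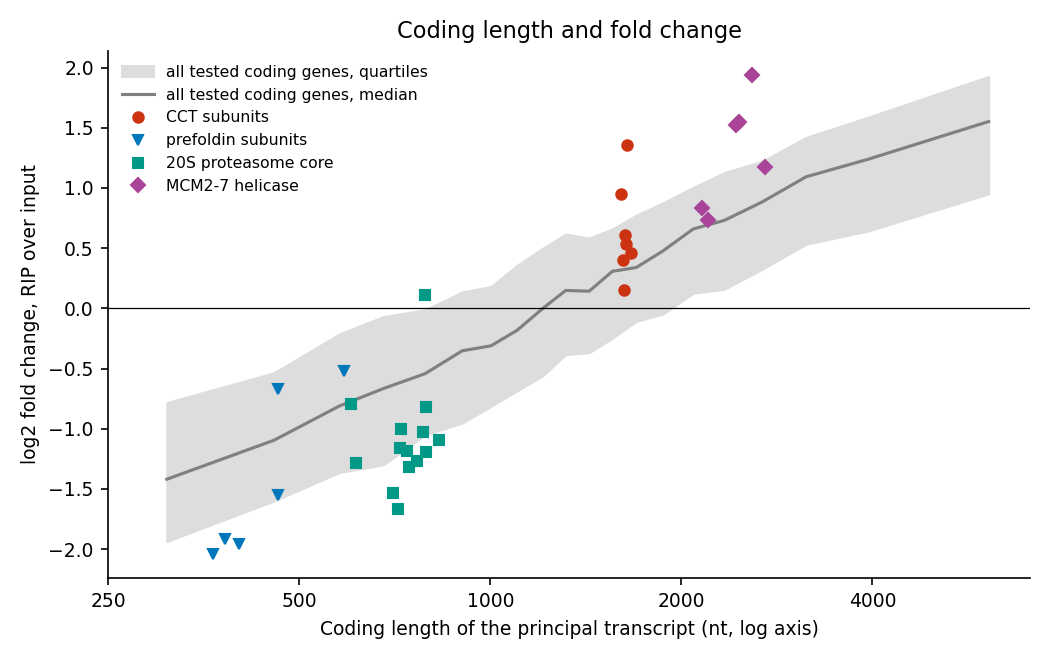
Log2 fold change of RIP over input (y axis, TMM scaling) against coding length of the principal transcript (x axis, nt, log scale) for the 7 CCT subunit genes with an annotated coding sequence, the prefoldin, 20S proteasome core and MCM2-7 genes, with the median (line) and quartiles (band) of all tested coding genes in 20 bins. The CCT subunits stack at 1605 to 1668 nt from 0.15 (Cct5) to 1.36 (Cct8), while prefoldin subunits lie at 366 to 588 nt between -2.04 and -0.52.

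Messages of the proteins that hand substrates to CCT were lower with TMM. Prefoldin, a jellyfish-shaped complex that captures nascent actin and tubulin, had 6 of 6 genes lower, where 38.6% of all genes tested were called lower. Pfdn1 (log2 fold change -2.04), Pfdn4 (-1.96), Pfdn6 (-1.92) and Pfdn5 (-1.55) had the largest decreases, and Pfdn2 (-0.67) and Vbp1 (-0.52) the smallest. Pfdn5 fell from 564 ± 9.25 to 193 ± 2.14 CPM (mean ± SD, n = 2). After the offset for coding length Pfdn2 (0.22, adjusted p = 0.00744 in edgeR) and Vbp1 (0.16, adjusted p = 0.0319) turned and were called higher, and the other 4 stood between -0.98 and -0.66.

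Phosducin-like proteins bind CCT and help it fold G protein subunits and other clients. Pdcl (-0.29), Pdcl3 (-0.42) and the related Txndc9 (-0.75) were called lower, and Pdcl2, at 2 to 7 counts a library, was not tested. After the offset for coding length they stood at 0.02, 0.09 and -0.19, and of the 3 only Txndc9 was still called lower.

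Among relatives of the subunits, Cct6b, the paralog of Cct6a made in testis, was rare at 31 and 42 counts in input and 8 and 12 in RIP, and it was called lower (log2 fold change -2.32 ± 0.472). Cct6a and Cct6b shared 76.6% of bases over 1184 aligned bases, and no window of 50 bases of the Cct6a transcript was found in Cct6b. Of the chaperonin-like genes of Bardet-Biedl syndrome, which help assemble a cilium complex, Bbs12 was called higher (1.05 ± 0.138), and Mkks (0.19 ± 0.155) and Bbs10 (0.38 ± 0.200) were not called.

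Genes whose proteins CCT folds were split, with 11 of 20 higher and 7 lower with TMM, and 6 higher and 12 lower with total counts. Of all genes 38.7% were higher and 38.6% lower with TMM, and 28.7% and 50.8% with total counts. Their median log2 fold change was 0.17. Those called higher with the highest mean CPM were Tubb5 (0.43), a beta tubulin, Actg1 (0.18), a cytoplasmic actin, Stat3 (1.36), a signalling transcription factor, and Rptor (1.92), a subunit of an mTOR complex. Of these, Actg1 turned with total counts, where it was called lower. After the offset for coding length Tubb5 stood at 0.29, Actg1 at 0.24, Stat3 at 0.71 and Rptor at 0.80. Actb, which stood at 1611 ± 9.85 CPM in input and 1334 ± 57.2 in RIP, was lower by 0.27, as were Tubb4b (-0.35), Tuba1b (-0.26) and Tuba1a (-0.58). With that offset Actb stood at -0.21, Tubb4b at -0.49, Tuba1b at -0.41 and Tuba1a at -0.73. Actins and tubulins have close copies that can share reads, so their values are uncertain.

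Where the subunit genes share sequence or position with others, their counts can be affected. Exons of Tcp1 overlap those of Acat3 by 571 bases and of Mrpl18 by 141 bases, those of Cct6a overlap Psph by 452, those of Cct7 overlap Pradc1 by 214, and those of Cct8 overlap Usp16 by 192, all on the opposite strand, and the library kit does not mark strand. Snora15 and Gm23245 lie within Cct6a and Snora20 and Gm26130 within Tcp1, and each of these small nucleolar RNAs had 30 counts or fewer in every library. Mrpl18 (-1.29), Pradc1 (-0.87) and Psph (-0.44) were called lower while the subunit gene beside each was higher with TMM. Usp16 was higher by 0.36, and Acat3 was not called (-0.33 ± 0.281). Mrpl18 had the most counts of these neighbours in input, 2241 and 2197, beside 9971 and 9411 for Tcp1.

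The share of windows of 150 bases, the read length, that also occur in transcripts of another gene was 18.5% for Tcp1, 13.1% for Cct6a, 2.88% for Cct7, 1.92% for Cct8 and 0% for Cct2, Cct3, Cct4 and Cct5. Windows of 50 bases of Tcp1 occurred in Acat3, Acat2 and Tcp1-ps1, and Acat2 was itself called higher (0.61). Processed pseudogenes resemble some subunits, and the longest alignment was to Cct3-ps1, with 91.1% identity to Cct3 over 1657 bases and 0 counts in every library. How reads in shared stretches were assigned is not given in the sources used here, so the values of Tcp1 and Cct6a are less certain than those of Cct2 and Cct5.

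Nearest profiles were sought among protein-coding genes, leaving out predicted genes (Gm and Rik symbols) and all genes of the lists used here. Nearest to the mean profile of the 8 subunits, by Euclidean distance of log2 CPM over the 4 libraries, were Caprin1 (distance 0.0609), which encodes a protein of RNA granules, Prkar1a (0.0649), a regulatory subunit of protein kinase A, and Actr3 (0.0807), a subunit of the Arp2/3 complex that nucleates actin filaments. Their log2 fold changes were 0.68, 0.65 and 0.57. That of the mean profile was 0.63, and the genes were chosen by nearness to it.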

How the data were processed

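The authors deposited raw counts of reads per gene, 1 column for each library. The submitters' processing notes name STAR 2.7.2b, featureCounts, SAMtools, cutadapt 4.1, Trimmomatic 0.36 and the GRCm38 build. The sources used here give neither the settings nor the annotation release. Most counts above 0 were even (65.4% to 67.4% per library), and whether both mates of a read pair were counted is not given in the sources used here. If they were, a count is not 1 independent fragment, so halved counts were also tried. Symbols, lengths and coordinates came from GENCODE M21, which names 94.1% of the identifiers. It lists Cct6a without a coding sequence.

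RIP and input were compared in R 4.3.3 with edgeR 4.0.16 (filterByExpr, TMM, robust quasi-likelihood test, Benjamini-Hochberg adjustment over 17422 genes, threshold 0.05). Each SE is the absolute log2 fold change over the root of F. The fit was also run on simulated counts in which few genes differed, equally many in each direction. That run does not test the scaling in these data, where many genes were called in both directions. Alternatives were other scalings and filters, DESeq2 1.42.0, limma-voom (limma 3.58.1), a replicate block, leaving out each library, halved counts, and loess offsets (span 0.3) for coding or merged exon length. Similar transcripts were found with BLAST 2.17.0.

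The named genes were all 8 subunits, at most the 4 most abundant called genes per direction of longer lists, lists of up to 6 genes whole, overlapping genes and the 3 nearest profiles. Cct3-ps1 and Acat2 were named after their values were seen. The members and lists were chosen with earlier results of these data known.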

Additional observations from a re-analysis of the deposited data

How the results depend on the processing

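Of the 8 subunits, 6 kept their direction and call in every alternative that gave a value. Cct5 turned to -0.19 with upper-quartile scaling, -0.20 with total counts and -0.16 with the coding length offset, and in each of these 1 subunit gene was called lower. Cct4 lost its call with total counts (0.055). In edgeR with TMM, DESeq2 and limma-voom all 8 log2 fold changes were above 0, so no subunit could be called lower at any threshold. The SD over the subunits was 0.398 with the coding length offset, which leaves out Cct6a, and 0.398 over the same 7 genes without an offset. It was 0.549 with the merged exon length offset, where their range was 1.44. That offset moves genes of unlike merged exon length by unlike amounts, and these lengths run from 2557 nt in Cct2 to 6778 nt in Cct7. Per kb of principal transcript the highest level was 3.36 times the lowest in input and 2.38 times in RIP. Genes of folded proteins called higher and lower went to 6 and 12, and proteasome core genes called higher to 0, under upper-quartile scaling as under total counts. Of all genes tested, 28.8% were called higher and 50.5% lower with upper-quartile scaling, and 28.7% and 50.8% with total counts. Equal replicate numbers did not deviate together (correlation over genes -0.00103). With the replicate block the log2 fold change was 1.36 for Cct8 and 0.15 for Cct5. All 8 subunits were called higher with the block, as were 6734 of the 17422 genes tested. Leaving out 1 library at a time kept all 8 log2 fold changes above 0, with Cct5 at 0.16 to 0.19, Cct4 at 0.37 to 0.47 and Cct8 at 1.35 to 1.42. With 2 libraries a group, the SEs rest mostly on the spread shared across genes.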

Other observations

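The mitochondrial chaperonin, which folds proteins inside the organelle and is made of 2 kinds of subunit, had its messages at opposite ends. Hspd1, the large barrel subunit, went from 424 ± 1.08 to 1142 ± 2.17 CPM (mean ± SD, n = 2), a log2 fold change of 1.43 ± 0.0241 (SE), above that of 92.2% of all genes tested. Hspe1, its small lid subunit, went from 319 ± 4.65 to 97.8 ± 0.0783 CPM, a log2 fold change of -1.71 ± 0.0334. Their coding lengths are 1719 and 306 nt. After the offset for coding length Hspd1 stood at 1.06, close to Cct8 (1.04), and Hspe1 at -0.53. The adjusted p of edgeR's quasi-likelihood test was 1.21e-32 for Hspd1 and 7.39e-31 for Hspe1.

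Tubulin cofactors take over tubulin chains released by CCT and join alpha to beta subunits. Tbca (-1.42), Tbcb (-1.31) and Tbcc (-0.74) were called lower and Tbcd (1.57) higher. Tbce (0.11 ± 0.100) was not called with TMM but was called lower with total counts (-0.24, adjusted p = 0.0284 in edgeR). Of all genes tested, 38.6% were called lower and 38.7% higher with TMM, and 50.8% lower with total counts. Tbcd, with a coding sequence of 3588 nt, is the longest of the 5, and Tbca, at 324 nt, the shortest. After the offset for coding length Tbca stood at -0.28, Tbcb at -0.82, Tbcc at -0.55, Tbcd at 0.53 and Tbce at -0.17.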
